A study of Mus musculus with 12 samples.

Results

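The mitochondrial solute carrier family 25 was examined in H3K27ac regions of cardiomyocytes (CMs) with and without the nuclear receptor corepressor RIP140, which is encoded by Nrip1. The members were all protein-coding genes whose symbol starts with Slc25a, and 47 of the 21938 protein-coding genes of the GENCODE M21 annotation (GRCm38) on chromosomes 1 to 19, X and Y met this rule. H3K27ac is an acetylation of histone H3 that marks active promoters and enhancers, and CUT&RUN maps it by releasing antibody-bound chromatin with a tethered nuclease. CMs came from the hearts of male mice aged 10 to 12 weeks, with 200000 CMs per experiment, and 12 libraries were made, of which 3 H3K27ac and 3 IgG libraries belonged to each genotype. Both genotypes carried floxed Nrip1 alleles on a C57BL/6J background. Control mice were Nrip1 f/f Cre- littermates, and RIP140-null (KO, csNrip1-/-) mice were Nrip1 f/f Cre+, with Cre driven by Nkx2.5, which is active from early heart progenitors on and is therefore neither confined to adult CMs nor timed to adulthood. The values analysed here were 1 list of regions per genotype, each holding the regions enriched over IgG in at least 2 of 3 replicates.

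Members of the family are small inner-membrane proteins that move metabolites between cytosol and mitochondrial matrix, usually by exchanging one solute for another. In the heart they bring in ADP and phosphate for ATP synthesis and carry ATP out, pass acylcarnitines to fatty acid oxidation, and run the malate-aspartate shuttle that brings reducing equivalents from glycolysis into the matrix. Others handle citrate, coenzyme A, NAD, glutathione, iron and amino acids, and a few sit in peroxisomes or the outer membrane. The comparison asked where H3K27ac at these genes differed between RIP140-null and control CMs.

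Each gene was given a window of its gene body with 5 kb on either side, and each region overlapping it was counted, with its bases inside the window as the covered length. Regions with at least 1 bp in common between the lists were taken as shared, and a region without such a partner as KO-only or control-only. The promoter was 1000 bp upstream to 100 bp downstream of any annotated protein-coding transcription start site (TSS). Because the replicates had been merged, each genotype gave 1 value per gene, so no difference has a replicate error and no test across mice could be made. Shares carry 95% Wilson intervals, and for a count of 0 the limit given is 3 counts of the total, which both cover counting error only. The lists hold no read counts, so the depth behind a region is unknown. At the targeted gene itself, 2904 bp of the 7616 bp of the last exon of Nrip1, which holds its coding sequence, lay in control regions and 0 bp in KO regions.

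Some promoters carried a region in the KO list and none in the control list, and the sequences of 3 of them are shown because a KO region covered the whole stretch. For Slc25a1, Slc25a40 and Slc25a53 the KO regions covered 300 of the 300 bases given here, which run from 250 bases upstream to 50 bases downstream of a RefSeq start, and the control list covered 0 of them. The sequences are RefSeq's for GRCm38.p6, 5′ to 3′ on the strand of the gene, all in lower case because none of the 4 motifs searched for matched in them.
Slc25a1 promoter, chr16:17928170-17928469, minus strand: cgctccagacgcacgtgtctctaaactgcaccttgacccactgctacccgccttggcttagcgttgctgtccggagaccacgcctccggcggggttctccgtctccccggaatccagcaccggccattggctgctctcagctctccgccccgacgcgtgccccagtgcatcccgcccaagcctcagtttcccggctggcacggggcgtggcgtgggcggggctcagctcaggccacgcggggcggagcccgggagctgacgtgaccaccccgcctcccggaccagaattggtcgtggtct
Slc25a40 promoter, chr5:8422588-8422887, plus strand: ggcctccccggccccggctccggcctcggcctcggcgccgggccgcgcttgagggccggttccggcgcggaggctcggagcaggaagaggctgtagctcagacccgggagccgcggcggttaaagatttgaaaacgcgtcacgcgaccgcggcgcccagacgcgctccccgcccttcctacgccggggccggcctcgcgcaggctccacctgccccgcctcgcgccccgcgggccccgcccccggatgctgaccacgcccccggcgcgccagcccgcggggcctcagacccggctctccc
Slc25a53 promoter, chrX:137038253-137038552, minus strand: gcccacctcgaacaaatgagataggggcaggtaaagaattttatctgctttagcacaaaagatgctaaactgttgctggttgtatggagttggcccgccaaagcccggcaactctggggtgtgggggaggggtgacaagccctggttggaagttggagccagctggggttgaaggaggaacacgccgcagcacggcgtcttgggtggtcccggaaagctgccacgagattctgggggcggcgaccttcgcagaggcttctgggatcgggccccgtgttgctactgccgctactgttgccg
Their GC content was 69.3% for Slc25a1, 79% for Slc25a40 and 59% for Slc25a53, and they held 30, 47 and 16 CpG dinucleotides. The median over all 32851 promoters of the table was 52.7% GC and 7 CpG, and over the members' promoters covered in both lists it was 60.3% GC and 17 CpG, above the values of Slc25a53. A second Slc25a53 promoter of the table was covered in neither list.

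Promoters covered in both lists were the usual state of the family. Of the 47 members, 31 had a promoter covered in both genotypes (66.0%, 51.7 to 77.8), against 46.1% of all protein-coding genes. A promoter covered in the KO list only was found at 6 members (12.8%, 5.98 to 25.2), namely Slc25a1, Slc25a26, Slc25a35, Slc25a40, Slc25a47 and Slc25a53, against 5.13% of all genes. The reverse was found at 0 of 47 members, which allows a share of up to 6.38% (Wilson upper bound 7.56%), against 2.83% of all genes. With a promoter of 2000 bp upstream to 500 bp downstream it was found at 1 member, Slc25a21, and among regions with 3 or more merged peaks at 1 member, Slc25a28. The remaining 10 members had no promoter region in either list. Restricting both sides to windows of up to 60000 bp, an alternative added after the data were seen, left 4 of 41 members with a KO-only promoter, against 5.10% of such genes. No interval was computed for this smaller count, so it is not set apart from that share.

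**Figure D1:**
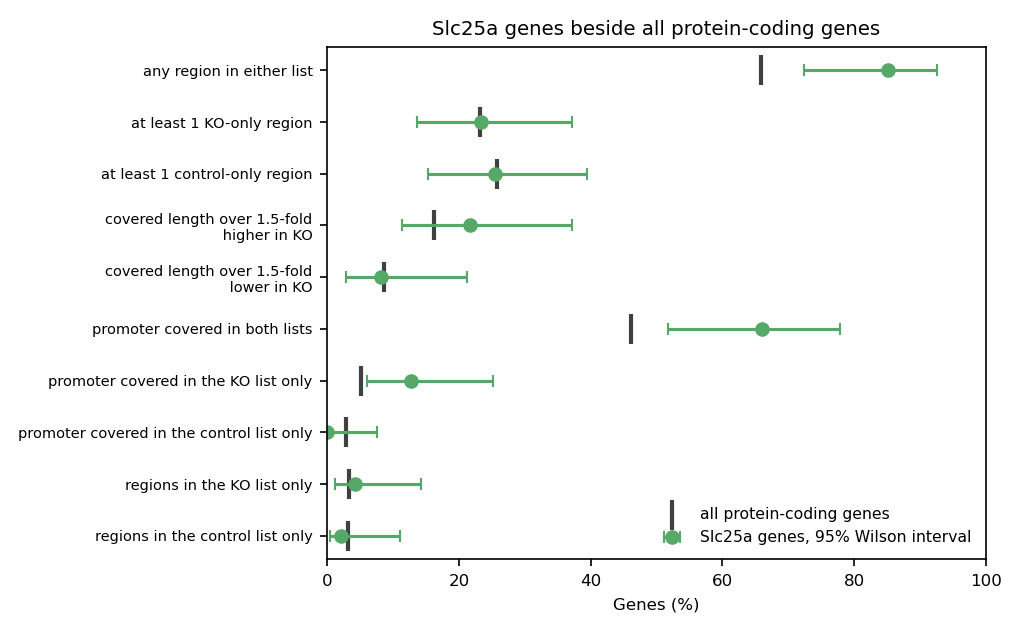
Share of Slc25a genes (green points, with 95% Wilson intervals that cover counting error only) and of all protein-coding genes (dark ticks) that met each description, in percent. The Slc25a points lie beside the ticks for KO-only and control-only regions (23.4% and 23.2%, 25.5% and 25.8%) and to the right of them for any region (85.1% and 65.8%) and for promoters covered in both lists or in the KO list only.

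The family was well covered by H3K27ac in both genotypes. A region of either list lay in the windows of 40 of 47 members (85.1%, 72.3 to 92.6), against 65.8% of all protein-coding genes. The median share of a window covered was 12.3% in the control list and 15.8% in the KO list, against 5.05% and 5.56% over all genes, although the windows were of like size, with a median of 31486 bp for members and 27425 bp for all genes. In all, 94 distinct control regions and 82 distinct KO regions lay at members, with a median width of 2001 bp in control and 2349.5 bp in KO. The same medians over the whole lists were 1846 bp and 2291 bp, so the KO regions were fewer and wider at the family and across the genome alike.

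The 7 members without any region were Slc25a14, Slc25a18, Slc25a31, Slc25a32, Slc25a37, Slc25a48 and Slc25a54. They include the ADP/ATP carrier of male germ cells (Slc25a31), a glutamate carrier (Slc25a18), a folate and FAD carrier (Slc25a32), mitoferrin-1 (Slc25a37, an iron importer) and a carrier close to the uncoupling proteins (Slc25a14). For 2 further members the regions in the window belonged to neighbours. The region near Slc25a2, an ornithine carrier, lay at the start of Taf7, and that near Slc25a41, an ADP/ATP carrier-like gene, lay at the start of Khsrp. Neither list covered the promoters of Slc25a2 and Slc25a41 themselves.

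Genes with a region found in 1 list only were about as common in the family as among all genes. At least 1 KO-only region lay at 11 of 47 members (23.4%, 13.6 to 37.2), against 23.2% of all genes, and at least 1 control-only region lay at 12 (25.5%, 15.3 to 39.5), against 25.8%. Of the 82 KO regions at members 12 were KO-only (14.6%, 8.57 to 23.9), against 21.5% of the whole KO list. Of the 94 control regions 16 were control-only (17.0%, 10.8 to 25.9), against 29.5% of the whole control list. This interval lies below the share of the whole list, while the KO-only interval holds it. The whole lists also contain regions outside gene windows. Within the windows of all protein-coding genes, 10590 control regions were control-only and 28701 shared, and 7032 KO regions were KO-only and 26966 shared. There were 6 members with KO-only regions alone, 7 with control-only regions alone, 5 with both kinds and 22 whose regions were all shared. All regions were in the KO list only at 2 members, Slc25a40 and Slc25a53 (4.26%, against 3.39% of all genes), and in the control list only at 1 member, Slc25a21 (2.13%, against 3.24%).

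KO-only regions lay mostly at promoters and control-only regions mostly in introns. Of the 12 KO-only regions 7 lay at a promoter of the member itself, 3 in introns and 2 in the flanks. Of the 16 control-only regions 0 lay at a member's promoter, 11 lay in introns, 2 overlapped an exon outside the promoter as defined and 3 lay in the flanks. The nearest of them, at Slc25a21, began 242 bp downstream of the TSS, while the farthest KO-only promoter region, at Slc25a47, ended 804 bp upstream. When the promoters of neighbouring genes were counted too, 9 of 12 KO-only regions lay at a promoter (75%, 46.8 to 91.1), against 15.7% of the 7032 KO-only regions in windows of all protein-coding genes. The same count was 2 of 16 for control-only regions (12.5%, 3.50 to 36.0), against 7.25% of 10590. Within windows of up to 60000 bp the KO-only count was 7 of 9 (77.8%, 45.3 to 93.7), against 31.8% of 2497 regions. These counts were made after the positions had been seen, and no test of the difference was run. By the number in their names, 10 of the 12 KO-only and 13 of the 16 control-only regions were merged from 2 peaks. This is the fewest the lists hold. Regions of 3 or more peaks were a minority of the whole lists too (17775 of 45521 in KO, 16707 of 53754 in control). Median widths at members were 1579.5 bp for KO-only and 944.5 bp for control-only regions. Over all KO-only and control-only regions they were 1279 bp and 1045 bp.

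**Figure D2:**
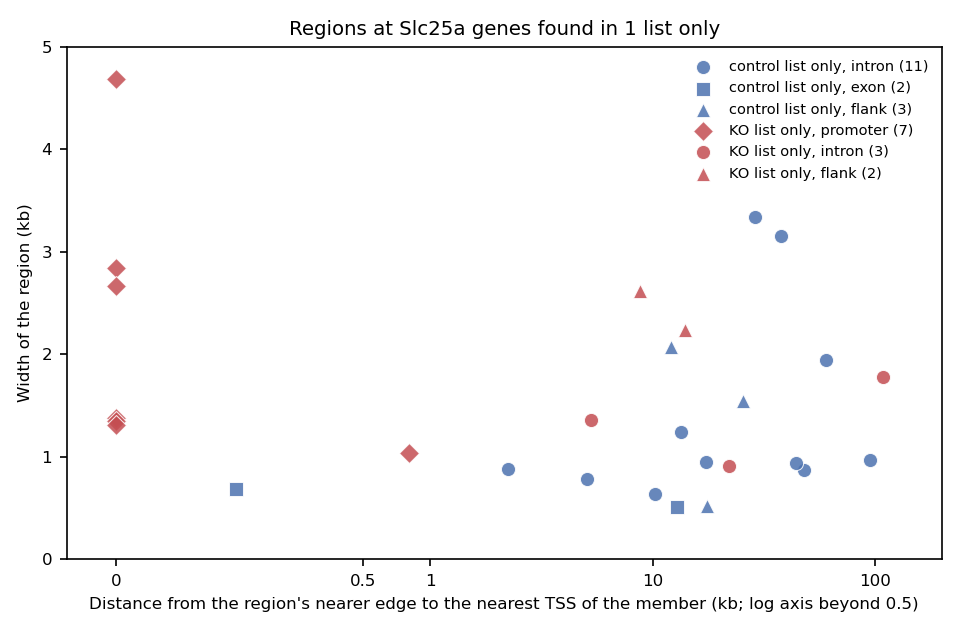
Distance from the nearer edge of each region found in 1 list only to the nearest TSS of its Slc25a gene (horizontal, kb, logarithmic beyond 0.5 kb) against the width of the region (vertical, kb), with 12 KO-only regions in red and 16 control-only regions in blue, and the shape giving the place. The 7 promoter regions (diamonds) are all KO-only, and 6 of them reach the TSS itself.

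The KO-only promoter regions are described by member. Slc25a1 (ENSMUSG00000003528), the citrate carrier, exports citrate for fatty acid synthesis. Its promoter carried a KO-only region of 1379 bp at chr16:17927878-17929256, and the nearest control region began 4876 bp away. The other region of its window lay downstream of the gene and was shared, with 1824 bp in control and 2082 bp in KO. Slc25a40 (ENSMUSG00000054099), a glutathione carrier, had no control region in its window. Its KO regions were 2665 bp at the promoter (chr5:8421590-8424254), which also overlapped the neighbouring gene Dbf4, and 907 bp in an intron (chr5:8446822-8447728). Its paralog Slc25a39, also a glutathione carrier, had 2 shared regions in each list, with 4505 bp covered in control and 3840 bp in KO.

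Slc25a26 (ENSMUSG00000045100), which imports the methyl donor S-adenosylmethionine, carried a KO-only region of 1347 bp across its TSS (chr6:94499605-94500951), 43279 bp from the nearest control region. Its intronic regions covered 13087 bp in control and 8164 bp in KO, so that the whole window held fewer covered bases in KO (9511 bp) in spite of the added promoter region. Slc25a35 (ENSMUSG00000018740), whose substrate is not settled, had a KO-only promoter region of 2844 bp (chr11:68965846-68968689), while its shared region lay at the start of the neighbouring gene Rangrf. Slc25a53 (ENSMUSG00000044348) had a single KO-only region of 1308 bp at its promoter (chrX:137037355-137038662). Slc25a47 (ENSMUSG00000048856) had a KO-only region of 1037 bp (chr12:108849289-108850325) whose edge lay 804 bp upstream of a TSS, so that the TSS base itself was not covered.

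The last of the KO-only promoter regions lay in Slc25a22 (ENSMUSG00000019082), a glutamate carrier. This region was the widest of the 12, with 4684 bp at chr7:141431409-141436092 merged from 5 peaks, and it spanned internal start sites. It lay 113 bp from a control region over the main promoter, so a rule that accepted gaps of up to 1000 bp would have called it shared. The main promoter of Slc25a22 was covered in both lists, by 1916 bp in control and 1293 bp in KO.

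**Figure D3:**
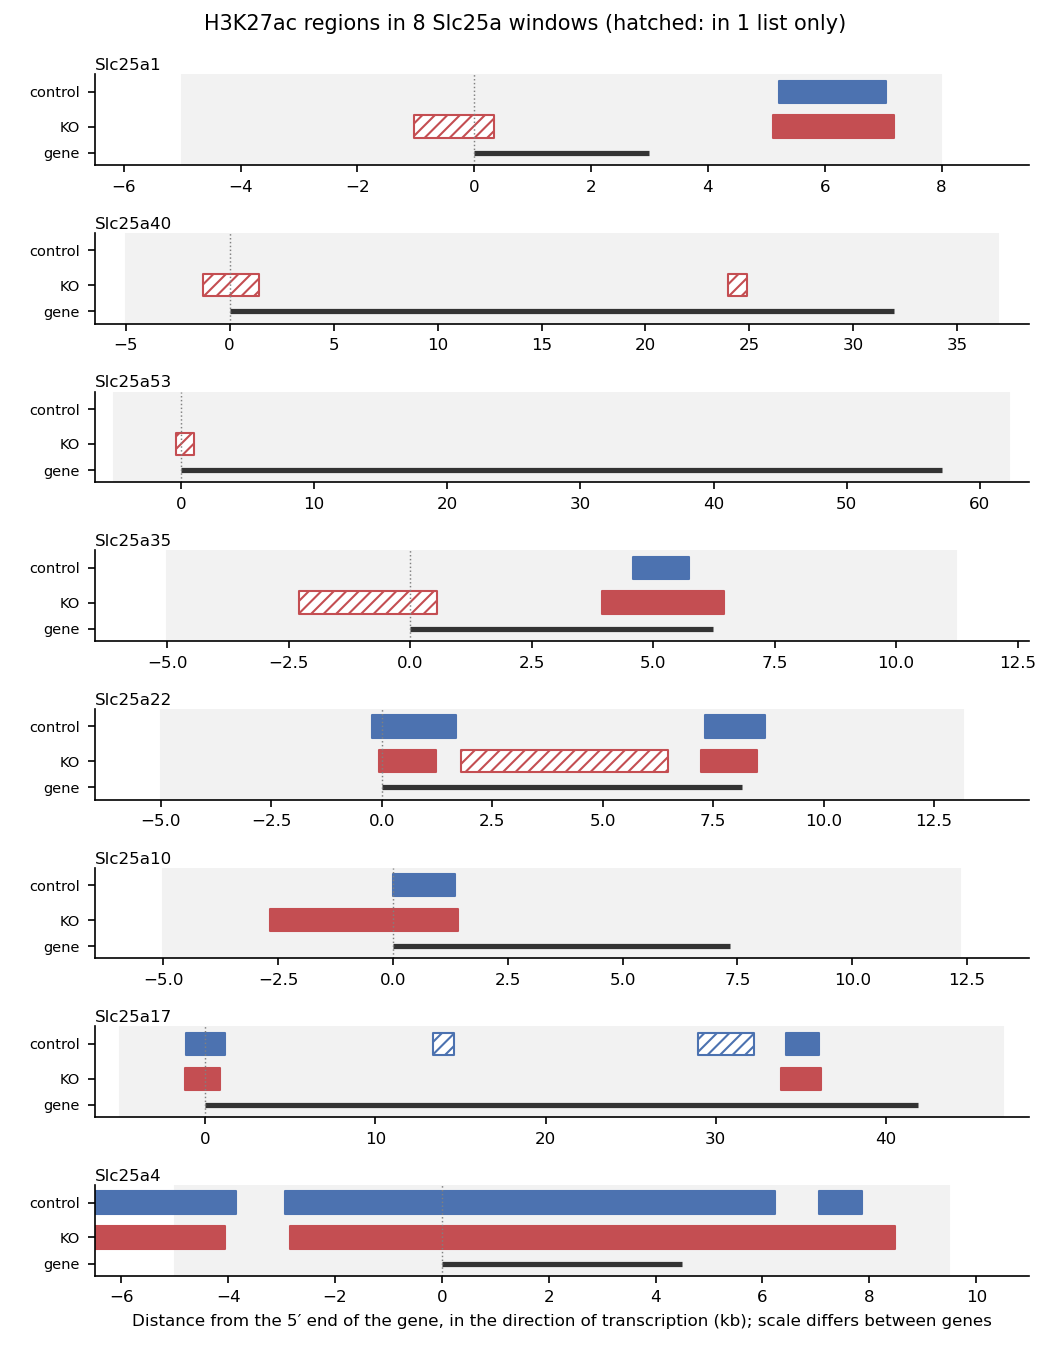
H3K27ac regions of the control list (blue) and the KO list (red) in the windows of 8 Slc25a genes, drawn by distance from the 5′ end of the gene in the direction of transcription (kb, a scale of its own for each gene), with the gene as a black bar, the window shaded and regions found in 1 list only hatched. KO-only regions cover the 5′ ends of Slc25a1, Slc25a40, Slc25a53 and Slc25a35, while the control-only regions of Slc25a17 lie in its introns and Slc25a4 is covered over its whole length in both lists.

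The length covered was compared for the 37 members with a region in both lists. The median log2 ratio of KO over control was -0.04, against 0.08 over 12989 genes. Ratios ranged from -1.02 for Slc25a17 to 2.22 for Slc25a35, whose control bases all lay at the start of the neighbouring gene Rangrf. The log2 ratio was above 0 for 18 of 37 members, against 58.1% of all genes. Covered length was over 1.5-fold longer in KO at 8 members (21.6%, 11.4 to 37.2), against 16.3% of all genes, and over 1.5-fold shorter at 3 members (8.11%, 2.80 to 21.3), against 8.6%. The other 26 members lay within 1.5-fold, between -0.54 and 0.27 on the log2 scale. The intervals of both shares hold the share of all genes.

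**Figure D4:**
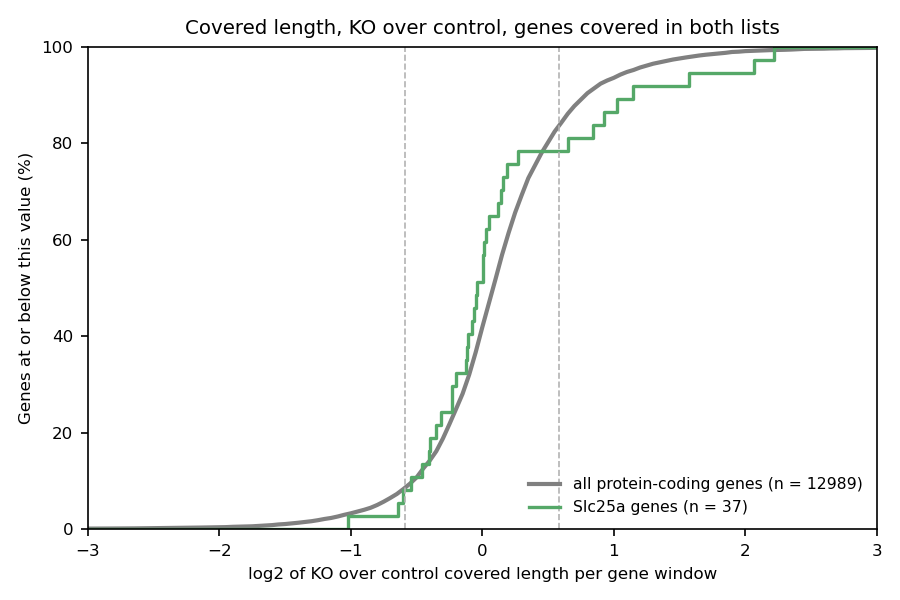
Cumulative share of genes (vertical, percent) by log2 ratio of KO over control covered length (horizontal), for 37 Slc25a genes (green steps) and 12989 protein-coding genes (grey line) covered in both lists, with dashed lines at 1.5-fold either way. The green steps rise through the middle of the plot to the left of the grey line, with a median of -0.04 against 0.08, and lie below it beyond 1.5-fold higher, where 8 members remain.

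Carriers of ATP, ADP and phosphate had nearly equal coverage in the genotypes. Of the 8 members 7 were covered in both lists, all within 1.5-fold (log2 ratio -0.05 to 0.19). Most genes lay within 1.5-fold too, as 16.3% of all genes were longer and 8.6% shorter in KO. A region of 1 list only was at 0 of the 8, against 23.2% of all genes for KO-only and 25.8% for control-only. So few members cannot be set apart from these shares. Slc25a41 counts among the 7 only through the region at the start of Khsrp. Slc25a4 (ANT1), the ADP/ATP carrier of heart and skeletal muscle, had 11137 bp covered in control and 12266 bp in KO, which was 76.9% and 84.7% of its window. Slc25a3, the phosphate carrier, had 7292 bp and 7432 bp. Slc25a5 (ANT2), the widely expressed ADP/ATP carrier, had 2193 bp and 2218 bp. The covered bases were thus alike, but they were split differently at 2 of these genes. The promoter of Slc25a3 lay in a control region of 3939 bp beside a second of 3538 bp, and in a single KO region of 7432 bp. At Slc25a4, 3 control regions stood against 2 KO regions. Of the calcium-activated ATP-Mg/phosphate carriers (Slc25a23, Slc25a24 and Slc25a25), Slc25a25 was covered most, by 24820 bp in control and 25764 bp in KO.

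The carnitine/acylcarnitine carrier Slc25a20, which passes long-chain acyl groups into the matrix for fatty acid oxidation, had 1 shared region at its promoter. It was 3036 bp wide in control and 2588 bp in KO, a log2 ratio of -0.23 that stayed within 1.5-fold. The coenzyme A carrier Slc25a42 had 12708 bp covered in control and 14188 bp in KO (log2 ratio 0.16). One control-only intronic region of 780 bp lay in Slc25a42, and at its promoter 1 KO region of 8752 bp spanned 2 control regions with 6542 bp (1.34-fold).

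Of the carboxylic acid carriers, all 3 members covered in both lists were over 1.5-fold longer in KO, against 16.3% of all genes, and the other member had control regions alone. None of the 3 passed 1.5-fold over the gene body alone, where the log2 ratio was 0.05 for Slc25a10 and 0.51 for Slc25a11 and Slc25a1 was not covered in both lists. Slc25a10, the dicarboxylate carrier, had 1367 bp in control and 4075 bp in KO (2.98-fold), in 1 shared promoter region that extended upstream in KO. Slc25a11, the oxoglutarate/malate carrier of the malate-aspartate shuttle, had 2505 bp and 5084 bp (2.03-fold), of which 883 bp in KO belonged to a region of 12890 bp that reached in from the neighbouring gene Eno3. Its promoter regions alone were 2505 bp and 4201 bp (1.68-fold). Slc25a1 had 1824 bp and 3461 bp (1.90-fold), through the KO-only promoter region. Slc25a21, the oxodicarboxylate carrier, had 2 control-only regions of 949 bp and 686 bp and none in KO, in a window of 494839 bp, the largest of the family.

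The aspartate/glutamate carriers complete the malate-aspartate shuttle, and neither passed 1.5-fold. Slc25a12 (aralar), the form of excitable tissues, had 7 control regions with 22276 bp and 4 KO regions with 16849 bp (log2 ratio -0.40), among them 1 control-only intronic region of 3155 bp. Its promoter region was 5823 bp in control and 3239 bp in KO. Slc25a13 (citrin) was the most widely covered member, with 44199 bp in 12 control regions and 47886 bp in 8 KO regions. It held 3 control-only and 1 KO-only regions, all intronic and all under 2 kb.

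Among the other amino acid carriers, 2 were longer and 2 shorter in KO. Slc25a22 had 3274 bp in control and 7251 bp in KO (2.21-fold). Slc25a44, the branched-chain amino acid carrier, had 3155 bp and 5667 bp (1.80-fold), but its KO-only region of 2233 bp and one of its 2 control-only regions lay by the neighbouring gene Pmf1. Over the gene body alone the ratio for Slc25a44 turned to a log2 value of -0.54. Slc25a15, the main ornithine carrier of the urea cycle, had 2719 bp and 1788 bp, 1.52-fold shorter in KO and just past the threshold. Slc25a38, the glycine carrier that feeds heme synthesis, had 2975 bp and 1905 bp (1.56-fold shorter), with a control-only region of 2073 bp at the promoter of the neighbouring gene Rpsa. Over its gene body alone the log2 value was 1.13, and its own promoter region was 902 bp in control and 1905 bp in KO. Slc25a29, a carrier of basic amino acids, had 1 region of each kind in its introns and a log2 ratio of -0.11. Its window overlaps that of Slc25a47, so that 3 of their regions were counted for both genes.

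Cofactor and nucleotide carriers gave a median log2 ratio of -0.34 over 8 covered members, the lowest of the role groups with more than 2 covered members. Slc25a17, the peroxisomal carrier of coenzyme A and adenine nucleotides, had 8792 bp in control and 4339 bp in KO (2.03-fold shorter), through 2 control-only intronic regions of 3344 bp (chr15:81328539-81331882) and 1238 bp (chr15:81346210-81347447). Its promoter was covered alike, by 2266 bp and 2023 bp. The window of Slc25a16, a carrier linked to coenzyme A, held a control-only region of 1543 bp at the start of Dna2, while its own promoter region was 1500 bp in control and 2381 bp in KO. Slc25a51, the NAD carrier, had 9845 bp and 7457 bp with 4 shared regions in each list.

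Of the members without a settled role, Slc25a35 had the largest ratio of the family, with 1155 bp in control and 5366 bp in KO (4.65-fold). All of its control bases and 2522 bp of its KO bases lay in the shared region at the start of Rangrf. Its own promoter had 0 bp in control, so the ratio rests on a neighbour's region. Slc25a34 had 6182 bp and 9724 bp (1.57-fold), as 1 KO region of 8612 bp ran over 2 control regions, and this region also overlapped Tmem82 and Plekhm2. Slc25a46, an outer-membrane member linked to mitochondrial shape, had 1 control-only intronic region of 633 bp and a log2 ratio of -0.54. The iron and glutathione carriers covered in both lists and the uncoupling protein-like carriers lay between -0.23 and -0.04 on the log2 scale.

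**Figure D5:**
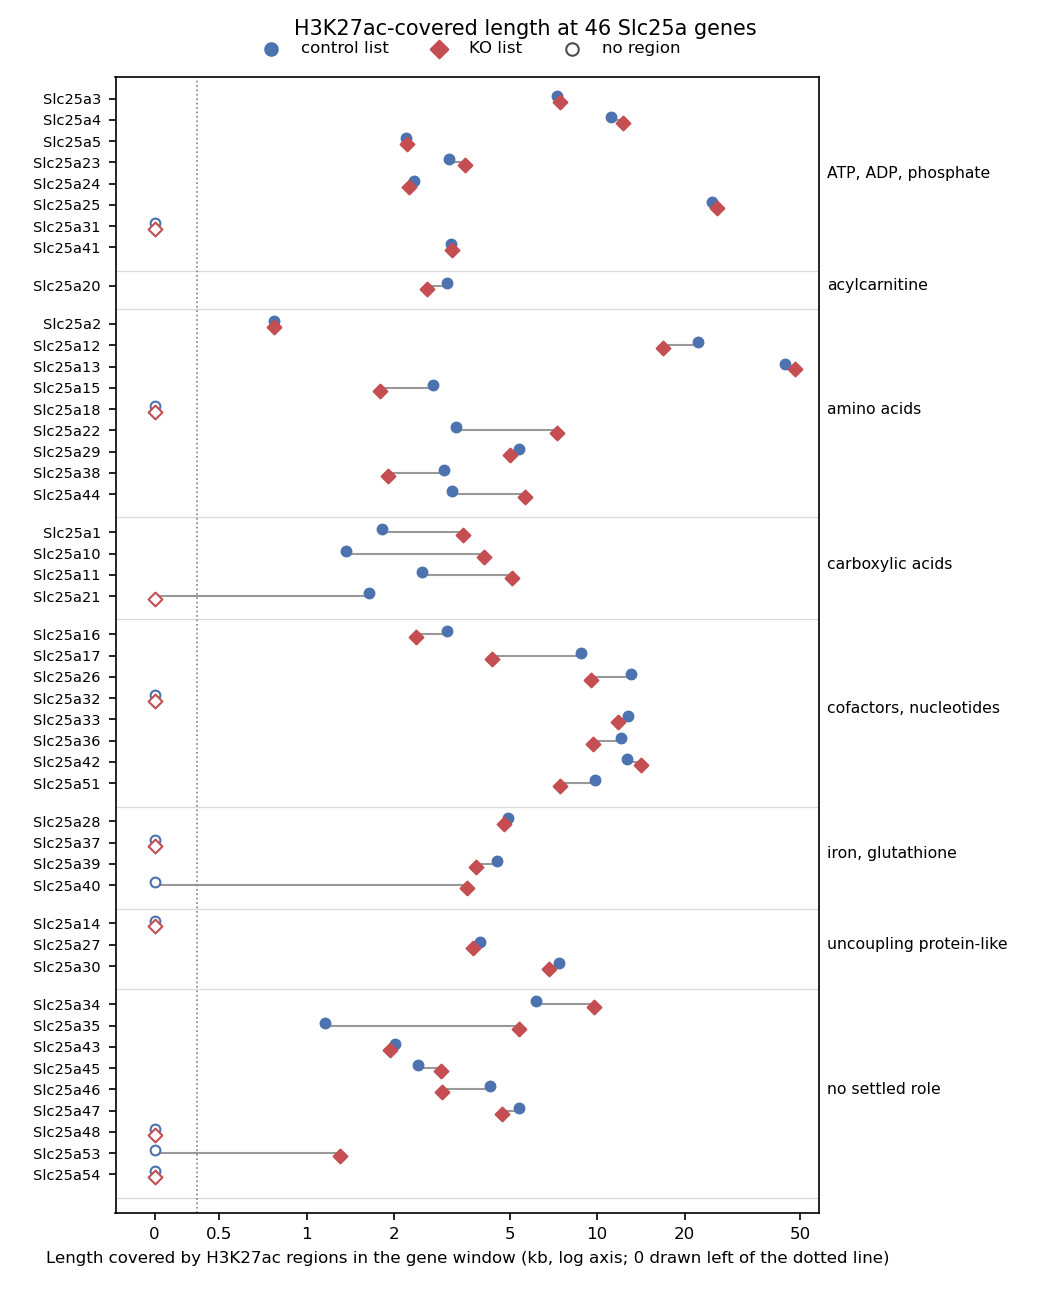
Length covered by H3K27ac regions in the windows of 46 of the 47 Slc25a genes (horizontal, kb, logarithmic, with 0 drawn left of the dotted line), with the control list as blue circles, the KO list as red diamonds, open symbols for no region and genes grouped by role. The symbols nearly coincide for the ATP, ADP and phosphate carriers, and the diamonds lie to the right for Slc25a1, Slc25a10 and Slc25a11.

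Width was also compared by the stretches of overlapping regions, of which 67 at members were in both lists. Their median log2 width ratio was 0.01, against 0.08 over 32647 stretches of the whole lists. A stretch was over 1.5-fold wider in KO in 9 cases (13.4%, 7.23 to 23.6, against 17.3%) and over 1.5-fold narrower in 4 (5.97%, 2.35 to 14.4, against 10.3%). A single KO region spanned 2 or more control regions in 10 cases (14.9%, 8.31 to 25.3, against 9.35%), and the reverse held in 1 case (1.49%, 0.264 to 7.98, against 4.67%). For regions at the promoter alone, a measure added after the values were seen, 10 of 31 members were over 1.5-fold longer in KO, against 19.7% of genes, and 3 over 1.5-fold shorter, against 7.57%. The median log2 ratio of these promoter regions was 0.02, against 0.12 over 10124 genes.

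Motif matches were searched in the same regions on both strands, as descriptions of sequence. The motifs were the half-site of the estrogen-related receptors (ERR, TNAAGGTCA), which are nuclear receptors of mitochondrial genes, the core of the NRF1 site (CGCATGCG), an ETS factor site (CCGGAAGT) and the MEF2 site, which is bound by a family of muscle transcription factors. Of the 47 members 36 were in the RefSeq promoter table, with 46 promoters, and the absent members included Slc25a2, Slc25a26, Slc25a27, Slc25a32, Slc25a35, Slc25a37, Slc25a41, Slc25a44, Slc25a46 and Slc25a51. The ERR letters were in 0 of these 46 promoters, against 1.28% of all 32851. The MEF2 site was in 0 (0.557% of all), the NRF1 core in 0 (1.87% of all) and the ETS site in 1, that of Slc25a20 (2.17%, against 3.89% of all). A count of 0 in 46 allows a share of up to 6.52%, above each of these shares of all promoters.

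Over the full width of the regions overlapping member windows, the ERR letters matched at 26 positions in regions of both lists. Another 10 were in such control regions alone and 8 in such KO regions alone. Regions that missed every window were not searched, so the other list may still cover some of these positions. The KO match by Slc25a11, for example, lay beyond the window, in a stretch that also held 2 control regions with 9587 bp. Most of the positions matched in 1 list alone lay in shared regions. Within regions of 1 list only there was 1 ERR match in KO (Slc25a47) and 1 in control (Slc25a13), and both lay in sequence that the reference soft-masks as repeat. MEF2 matches lay in the KO-only regions of Slc25a35 and Slc25a40, and ETS matches in those of Slc25a1 and Slc25a26 and in the control-only region by Slc25a38. The NRF1 core lay in the control-only region by Slc25a16. Rates over the full width of all regions were not computed. In the central 300 bp, the MEF2 site was in 2 of 82 KO regions at members (2.44%), against 1.57% of all KO regions. The ERR letters were in 1 (1.22%, against 2.27%), the ETS site in 2 (2.44%, against 1.03%) and the NRF1 core in 0 (against 0.360%). In control, the ERR letters were in 3 of 94 regions at members (3.19%), against 2.19% of all control regions. The MEF2 site was in 0 of these 94, against 1.63%. The ETS site and the NRF1 core were in 1 each (1.06%), against 0.979% and 0.327%. No interval or limit was computed for these few matches. Of the matches in regions found in 1 list only, those by Slc25a1, Slc25a16 and Slc25a38 are left out. The stretches around the other 5 are printed as examples. They are given 5′ to 3′ on the plus strand of GRCm38.p6, with the match in capitals.
Slc25a26 ETS match, KO-only, chr6:94500274-94500330: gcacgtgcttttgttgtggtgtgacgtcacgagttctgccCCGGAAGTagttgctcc
Slc25a35 MEF2 match, KO-only, chr11:68966942-68967031: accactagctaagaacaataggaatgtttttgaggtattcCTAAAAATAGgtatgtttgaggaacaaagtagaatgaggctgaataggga
Slc25a40 MEF2 match, KO-only, chr5:8447127-8447216: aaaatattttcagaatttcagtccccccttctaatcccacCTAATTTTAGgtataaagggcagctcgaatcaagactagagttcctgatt
Slc25a47 ERR match, KO-only, chr12:108849415-108849503: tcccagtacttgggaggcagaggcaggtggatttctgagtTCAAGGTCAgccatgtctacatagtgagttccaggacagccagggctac
Slc25a13 ERR match, control-only, chr6:6120915-6121003: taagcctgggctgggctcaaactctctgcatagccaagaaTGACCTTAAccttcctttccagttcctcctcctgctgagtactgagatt
The ETS match of Slc25a26 lay 14 bp upstream of its TSS, and the MEF2 match of Slc25a35 lay 1145 bp upstream. The ERR match of Slc25a47 lay 1670 bp upstream, and the MEF2 match of Slc25a40 and the ERR match of Slc25a13 lay in introns, 22339 bp and 96159 bp from a TSS.

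The values were set beside those of other mitochondrial transport genes. Of 23 such genes (uncoupling proteins, mitochondrial carrier homologs, pyruvate carriers, sideroflexins, porins, calcium transporters and carnitine palmitoyltransferases, of which Ucp1 to Ucp3, Mtch1 and Mtch2 are relatives of the family set apart here by symbol alone), 22 were covered in both lists, with a median log2 ratio of 0.05. None was over 1.5-fold longer in KO, against 16.3% of all genes. Over 1.5-fold shorter were 3, among them Sfxn1 and Sfxn4, against 8.6% of all genes. KO-only regions lay at 7 and control-only regions at 8 of the 23, against 23.2% and 25.8% of all genes. In 1 gene, Micu2, a promoter was covered in the KO list only, against 5.13% of all genes. No interval or limit was computed for these small counts, and no contrast with the family was tested.

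The labelled cell type was checked on the same lists. The promoters of 6 of 6 cardiomyocyte markers were covered in both lists. Endothelial markers were covered at 6 of 6 promoters in control and 5 of 6 in KO, with summed lengths of 106361 bp and 112424 bp. Of these 6 markers 2 were over 1.5-fold shorter in KO (Cdh5, 5079 bp and 1743 bp, and Tie1, 2498 bp and 1645 bp), and 5 held control-only regions against 1 with a KO-only region. Fibroblast markers were covered at 2 of 6 promoters in control and 0 in KO, with 4496 bp and 834 bp, and Col1a2, Dcn and Postn had no region in either list. Macrophage markers had 0 of 6 promoters covered in either list, and Ptprc, Csf1r, Adgre1 and Lyz2 had no region. Their summed length was 27997 bp in control and 37718 bp in KO, from Cx3cr1 (26824 bp and 33590 bp) and Cd68 (1173 bp and 4128 bp). The part of other cell types in the differences above was not tested.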

How the data were processed

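The 12 libraries comprised 3 H3K27ac and 3 IgG CUT&RUN libraries from CMs of each genotype. Per the labels and the methods of the study, reads were aligned to GRCm38 (mm10) with Bowtie2 2.4.2, duplicates were removed with SAMtools, and regions were called in each replicate against IgG with HOMER 4.11.1 in histone style. The authors then merged the replicates and deposited 1 list of regions per genotype, kept where at least 2 of 3 replicates were enriched. The deposited values are positions in bp, with no signal or read counts, so depth is unknown and a region missing from a list may have been found in 1 replicate or narrowly missed the peak caller's threshold. The last number in a region's name was read as the number of peaks merged into it, which was inferred from the file headers and the values.

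Starts were counted from 0, as a comparison with the midpoints in the region names showed, and were converted to 1-based positions. On the chromosomes used, 53754 control and 45521 KO regions remained after 21 and 14 on other sequences were left out. Windows, promoters and shares were computed with Python 3.11.15 and scipy 1.17.1, and sequences were read with samtools 1.23.1 and pysam 0.24.0 from GRCm38.p6 and the RefSeq promoter table. The scripts were tested on simulated data, in which 400 of 400 genes with planted lengths and 200 of 200 planted motifs were recovered. Each genotype gave 1 value per gene, so values are descriptions beside those of all protein-coding genes. Named with values were members with a region of 1 list only, members past 1.5-fold, members without a region, and 8 carriers of cardiac energy supply. One member and one comparison gene are counted but not reported here by name. The members, role groups and gene lists were chosen with earlier results of these data known. The alternatives varied the overlap rule, region filters, window and promoter.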

Additional observations from a re-analysis of the deposited data

How the results depend on the processing

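The lists limit every result, since they hold merged positions without signal: a region in 1 list only can reflect a threshold narrowly missed in the other genotype, and no replicate could be left out because the lists hold no value per replicate. No paired analysis was possible because each genotype was deposited as 1 merged list, although the labels share replicate numbers. Of 67 summary values under the alternatives, 55 stayed near the reported ones. With a reciprocal overlap of at least 50%, members with a KO-only region went from 11 to 18, members with a control-only region from 12 to 21, the KO-only share to 34.1% and the control-only share to 42.6%. With at least 50% of a region covered, the KO-only share was 24.4%. Shares over all genes were not computed under these overlap rules, and shares over all regions under no alternative. Whether these rises are particular to the family is therefore unknown. Members with a control-only region numbered 7 for regions at least 1000 bp wide, 7 for equal numbers of the widest regions and 6 for regions with 3 or more merged peaks. The same filters gave 18.5%, 19% and 15.1% over all genes. Members with a KO-only region numbered 14, 12 and 10 under these filters, against 21.9%, 26% and 22.7% of all genes. The control-only share was 10.5% for regions at least 1000 bp wide. For regions with 3 or more merged peaks the KO-only share was 26.1% and members with a promoter covered in both genotypes numbered 18. Over the gene body alone, 5 members were over 1.5-fold longer in KO, and the share of all genes was not computed for it. Of 237 values of single members 17 crossed the 1.5-fold threshold, not counting the 3 reversals named below. The other sign was found in 36 of the 237, of which 33 belonged to 18 members within 1.5-fold as reported. The other 3 belonged to members past 1.5-fold: Slc25a38 to 1.13 over the gene body and 1.08 by the nearest TSS, and Slc25a44 to -0.54 over the gene body, as regions at neighbouring genes fell out. The count of 6 members with a promoter covered in KO only was between 5 and 7 under the region filters and other promoter definitions. Under the filter on merged peaks it was also 6, but 5 of these were other members, with Slc25a40 in common. Shares of all genes by promoter coverage were not computed under these alternatives.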
